A study of Arabidopsis thaliana with 4 samples.

Results

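The response of wild-type germinating seedlings to abscisic acid (ABA) was read as the difference between 2 of the series' 4 RNA samples, and 642 of the 22187 genes kept differed at least 2-fold. Seeds of the Arabidopsis thaliana accession Col-0 were germinated either on medium with 5 µM estradiol and collected at 36 h (wild-type control), or on medium with 5 µM estradiol plus 2.5 µM ABA and collected at 84 h (wild-type ABA). Per the labels, the collection times were chosen so that seedlings of both conditions were at the same radicle stage. The other 2 samples are a line overexpressing the zinc finger protein ZFP3 (ZFP3ox), grown and collected in the same ways. All groups, wild type included, were given estradiol, so its effect is in both samples compared. ABA and the later harvest came together and cannot be told apart here. Each group is 1 sample, so no difference has a replicate check and no p-value was computed.

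The authors deposited 2 expression columns for each sample, called set 1 and set 2 below. Values are RPKM, reads scaled by transcript length and by the mapped reads of the column. A gene was kept where it had 1 RPKM or more in both columns of a wild-type sample. Each gene then has 2 ratios, set 1 with set 1 and set 2 with set 2, written as log2((RPKM + 1)/(RPKM + 1)) of ABA over control. A value of 1 is a 2-fold higher level and -1 a 2-fold lower level, and the added 1 understates ratios of genes near 1 RPKM. A gene is called higher or lower where it passed 2-fold on the same side in both sets.

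ABA is the hormone that keeps a maturing seed from germinating and switches on the proteins of drying tolerance. It binds receptors of the PYR/PYL family, which then block clade A protein phosphatases and so free SnRK2 kinases to act on transcription factors such as ABI5. These factors bind the ABA response element, a short sequence near the start of many seed genes, while factors of the ABI3 family bind the RY motif of storage protein genes. In a seedling that leaves this state, seed transcripts disappear and the genes of chloroplasts and growing cell walls are switched on.

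In both sets 331 genes were higher with ABA, 1.49% of the genes kept, and 311 were lower, 1.4%. The higher genes were led by late embryogenesis abundant (LEA) proteins, oleosins and seed globulins. The lower genes were led by chlorophyll-binding antenna proteins, photosystem subunits, Calvin cycle enzymes and water channels. Taken alone, set 1 had 2668 genes past 2-fold upward and 1088 (4.9%) downward, and set 2 had 1492 (6.72%) and 1331 (6.0%). Opposite calls in the sets were rarer, with 55 genes higher in set 1 and lower in set 2 (0.248%), and 30 the other way (0.135%). Over all genes kept the ratios of the sets were weakly related, with a Pearson r of 0.284 across genes, which are not independent replicates. The median ratio of all genes kept was 0.31 in set 1 and -0.02 in set 2, so set 1 as deposited is shifted upward. When each set was scaled by the median of ratios, 222 genes were higher and 414 lower. Scaling left 23 higher and 1 lower LEA genes and gave 18 lower light-harvesting and 26 lower photosystem genes. The seedlings were sequenced whole, so fewer cells of a type and less RNA per cell cannot be told apart.

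**Figure D1:**
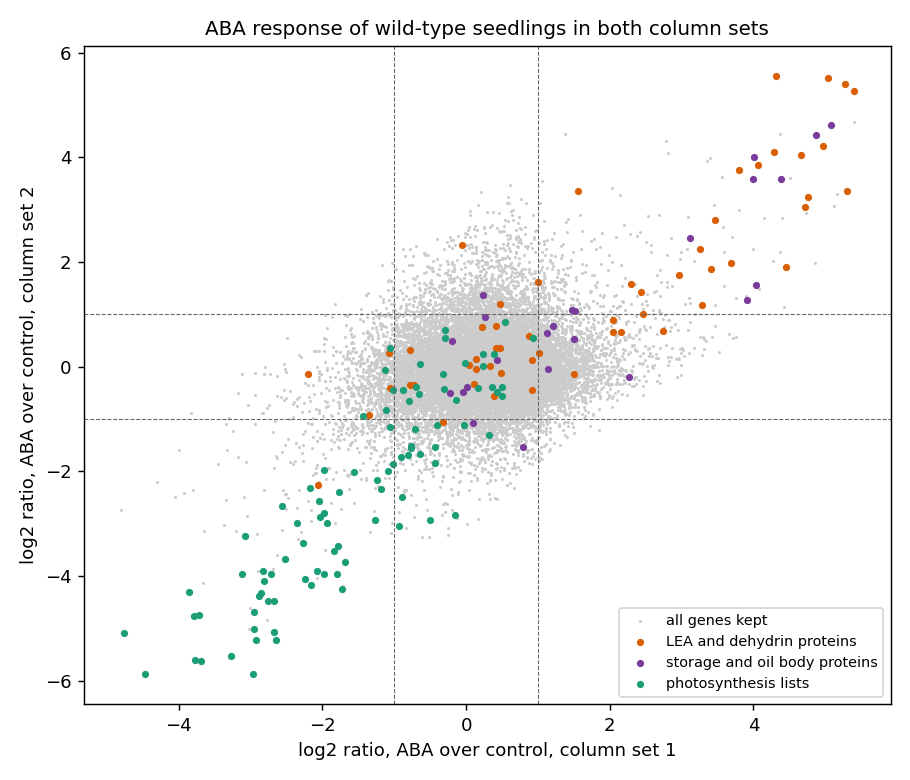
Log2 ratio of ABA over control in wild-type seedlings in column set 1 (x axis) and column set 2 (y axis). Each point is 1 gene kept, dashed lines mark 2-fold, and coloured points are members of gene lists. LEA, storage and oil body genes reach the upper right corner and photosynthesis genes the lower left, while most other genes lie in a cloud around 0.

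The sizes were uneven. Of the higher genes 60 passed 4-fold in both sets, 26 passed 8-fold, 11 passed 16-fold and 3 passed 32-fold. Of the lower genes 73 passed 4-fold, 16 passed 8-fold and 2 passed 16-fold. Near the threshold, 65 higher genes lay between 2-fold and 2.1-fold in their smaller ratio and 82 genes lay just outside, between 1.9-fold and 2-fold. On the lower side 47 lay just inside and 45 just outside. The control level is part of the ratio that chose the genes, so their levels are given as a description. The median higher gene had 7.45 RPKM in control and 28.4 with ABA in set 1, and 2.98 and 12.8 in set 2. The median lower gene had 73.6 and 17.1 RPKM in set 1, and 18.3 and 4.33 in set 2, where the median of all genes kept was 11.2 and 14.2 in set 1 and 4.55 and 4.51 in set 2. Of the higher genes 50 were under 1 RPKM in the control of set 2, 15.1% against 3.62% of all genes kept, so they entered through the ABA sample. As a share of the summed RPKM, the higher genes went from 0.94% to 6.26% in set 1 and from 0.637% to 2.74% in set 2. The lower genes went from 5.47% to 1.12% and from 5.02% to 0.621%. All shares of summed RPKM in this report depend on a few very abundant features, which differ between the sets. In set 2 AT3G43990 alone held 18.1% in control and 22.3% with ABA. In set 1 AT2G01021 held 4.6% and 6.9%.

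Both markers of the ABA response were higher. RAB18 (AT5G66400), a dehydrin that accumulates in dry seeds and under water stress, had 25.4 RPKM in control and 1114 with ABA in set 1, and 2.41 and 129 in set 2. LTI65 (AT5G52300), also known as RD29B, had 11.2 and 355 RPKM in set 1, and 8.24 and 35.5 in set 2. The log2 ratios were 5.4 and 5.26 for RAB18 and 4.86 and 1.98 for LTI65, so both columns with ABA lay above both control columns of the same gene. RAB18 moved from rank 4458 to 38 of the 23932 features in set 1 and from 16737 to 106 in set 2.

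The largest single level among the higher genes belonged to AT3G02480, a small LEA protein. It had 376 RPKM in control and 12412 with ABA in set 1, and 4.47 and 249 in set 2. Its log2 ratios were 5.04 and 5.51. With ABA it was the 5th most abundant feature of set 1, with 1.65% of the summed RPKM, but it ranked 57 in set 2. AT3G15670, another LEA protein, had 36.6 and 1456 RPKM in set 1, and 2.2 and 135 in set 2. LEA4-5 (AT5G06760), of the LEA group that protects drying tissue, had 34.8 and 714 RPKM in set 1, and 2.2 and 149 in set 2. GEA6 (AT2G40170), the EM6 protein of late seed maturation, had 13.2 and 357 RPKM in set 1, and 1.35 and 37.6 in set 2. In each of these genes the ABA column was more than 16 times the control column in both sets.

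Of 55 LEA and dehydrin genes kept, 24 were higher and 1 lower, and the list's median was 1.5 in set 1 and 0.77 in set 2. Their summed level went from 0.306% to 2.77% of all RPKM in set 1 and from 0.0969% to 0.482% in set 2. Past 8-fold in both sets were also AT3G17520 (4.97 and 4.22), LEA18 (4.28 and 4.09), the dehydrin gene LEA (4.06 and 3.84), AT5G66780 (3.80 and 3.75), LEA7 (4.72 and 3.05), EM1 (4.76 and 3.24) and AT4G36600 (5.30 and 3.35). The family did not move as a block. ERD14 (AT1G76180), an acidic dehydrin, was lower, with 133 RPKM in control and 30.9 with ABA in set 1, and 12.6 and 1.84 in set 2. Its relative COR47 had log2 ratios of -2.20 and -0.14, and ERD10 had 0.33 and 0.01, so neither passed the rule. EM1, LEA7, AT4G36600, COR47 and ERD10 lie outside the naming rule and were chosen after their values were seen.

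Seed reserve genes split by member. Among 7 storage protein genes kept, 4 were higher and 0 lower, with medians of 1.47 and 1.07. CRA1 (AT5G44120), a cruciferin of the globulin class, had 33.8 RPKM in control and 554 with ABA in set 1, and 10.09 and 131 in set 2. PAP85 (AT3G22640), a vicilin-like protein, had 9.87 and 174 RPKM in set 1, and 2.2 and 50.1 in set 2. The cruciferin gene CRU3 (3.11 and 2.45) and the albumin gene SESA5 (1.47 and 1.07) were also higher. Members that did not pass were the cruciferin gene CRU2 (0.01 and -0.39) and the albumin genes SESA1 (-0.23 and -0.51) and SESA4 (-0.05 and -0.48).

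Oil body proteins coat the droplets in which seeds store fat. Of 17 such genes kept, 6 were higher and 0 lower, with medians of 1.21 and 0.77. OLEO2 (AT5G40420) had 21.0 RPKM in control and 742 with ABA in set 1, and 3.05 and 98.4 in set 2. OLEO1 (AT4G25140) had 13.2 and 295 RPKM in set 1, and 1.21 and 25.5 in set 2. Another oleosin gene, AT3G01570, had log2 ratios of 4.88 and 4.42, and AT2G25890 had 4.03 and 1.56. The 16 genes kept that break down the oil (lipase, beta-oxidation and glyoxylate cycle) held 0 higher and 0 lower members. Over all genes kept 1.49% were higher and 1.4% lower, so 0 calls among 16 genes do not set this list apart. ICL, isocitrate lyase of the glyoxylate cycle, had 4453 and 2591 RPKM in set 1 but 189 and 904 in set 2. Below 0 in set 1 and above 1 in set 2 were also MLS (-0.46 and 2.03), malate synthase, PCK1 (-0.41 and 1.76), which turns the products into sugar, PMDH1 (-0.44 and 1.47), ACX1 (-0.27 and 1.33) and PKT3 (-0.22 and 1.25). The sets give opposite directions for all of these. The list's medians were -0.42 and -0.03.

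The gene lists hold 68 of the 331 higher genes and 145 of the 311 lower genes, and the rest are in no list. Of the genes below, BETA-VPE, PER1 and the seed-type water channels are list members. AT3G54940, a papain-type cysteine protease, had 10.7 RPKM in control and 492 with ABA in set 1, and 3.84 and 122 in set 2. BETA-VPE (AT1G62710), which in seeds cleaves storage protein precursors, had 12.7 and 76.9 RPKM in set 1, and 4.62 and 28.1 in set 2. PER1 (AT1G48130), a peroxiredoxin of dormant seeds, had 7.18 and 185 RPKM in set 1, and 2.77 and 44.6 in set 2. The seed-type tonoplast water channels TIP3;1 (4.4 and 2.83) and BETA-TIP (1.80 and 1.56) were also higher. AT1G04560, an AWPM-19-like membrane protein, had ratios of 4.38 and 4.45, AT1G54870, annotated as an NAD(P)-binding protein, 3.56 and 3.62, and AT3G03341, annotated as cold-regulated, 3.36 and 3.93. AT1G03106 (3.39 and 3.99) has no described function in the reference. Outside the naming rule and chosen after their values were seen, the cystatin gene CYS2 (2.28 and 2.53), the ferritin gene FER2 (2.67 and 1.75) and TSPO (3.70 and 2.48), a membrane protein induced by ABA, were higher as well. Of 4 endosperm markers 1 was higher, the mannanase gene MAN7 (2.15 and 1.95). The others, CYP707A2 (1.149 and 0.474), DOG1 (1.352 and 0.003) and EPR1 (0.897 and -0.495), did not pass. The sum of all 4 endosperm markers went from 0.00449% to 0.0131% of all RPKM in set 1 and from 0.00897% to 0.0129% in set 2. No marker was at 0 in a wild-type column, and the part of the endosperm in the seed gene results was not tested.

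**Figure D2:**
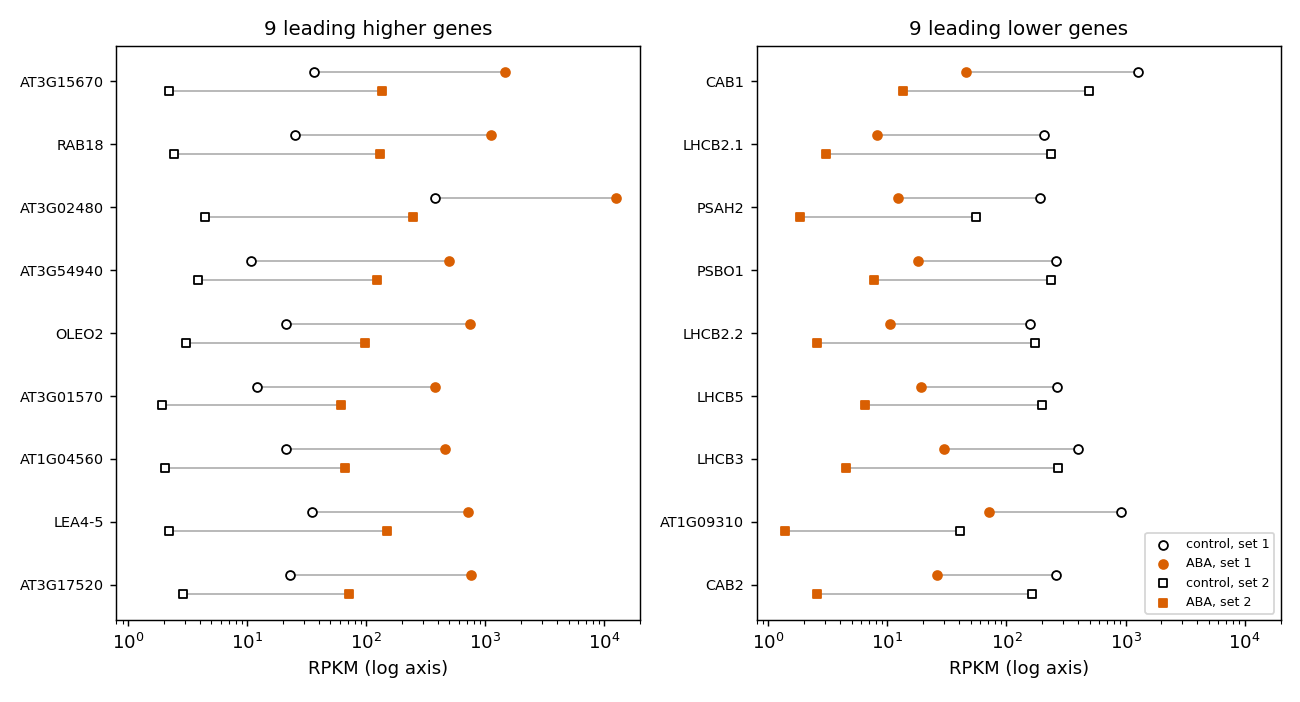
RPKM (log axis) of the 9 leading higher genes (left) and the 9 leading lower genes (right) in all 4 wild-type columns. Circles are set 1, squares set 2, open symbols control and filled symbols ABA, and a line joins both conditions of a set. In each gene the conditions lie on the same sides in both sets, while set 2 lies below set 1 for most genes.

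Sequences upstream of the genes are shown to set the leading genes beside the ABA response element and the RY motif. They were read from the RefSeq TAIR10.1 genome, which matches the files by locus code, while the sources used here do not name the build behind the deposited values. The ABA response element was searched as ACGTGNC and the RY motif as CATGCA, on both strands. The G-box CACGTG shares its ACGTG core with the response element, so both can be counted on the same bases. Each stretch is the 250 bases before the annotated gene start, 5′ to 3′ on the gene's strand, with ABA response elements and RY motifs in capitals. RAB18 is at chr5:26519448-26519697 (minus strand), GEA6 at chr2:16780369-16780618 (minus strand), LTI65 at chr5:21236771-21237020 (plus strand), OLEO1 at chr4:12900180-12900429 (plus strand), CRA1 at chr5:17758337-17758586 (minus strand), PSAH2 at chr1:19454548-19454797 (plus strand) and LHCB2.1 at chr2:1824481-1824730 (minus strand).
RAB18: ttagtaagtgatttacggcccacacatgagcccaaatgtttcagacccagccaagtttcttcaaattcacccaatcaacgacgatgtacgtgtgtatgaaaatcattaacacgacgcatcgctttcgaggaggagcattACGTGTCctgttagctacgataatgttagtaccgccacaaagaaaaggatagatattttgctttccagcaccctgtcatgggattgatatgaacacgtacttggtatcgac
GEA6: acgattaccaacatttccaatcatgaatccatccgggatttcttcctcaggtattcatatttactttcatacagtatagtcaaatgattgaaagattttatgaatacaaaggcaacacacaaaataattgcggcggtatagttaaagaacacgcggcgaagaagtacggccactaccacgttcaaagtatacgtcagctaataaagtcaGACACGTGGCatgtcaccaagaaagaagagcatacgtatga
LTI65: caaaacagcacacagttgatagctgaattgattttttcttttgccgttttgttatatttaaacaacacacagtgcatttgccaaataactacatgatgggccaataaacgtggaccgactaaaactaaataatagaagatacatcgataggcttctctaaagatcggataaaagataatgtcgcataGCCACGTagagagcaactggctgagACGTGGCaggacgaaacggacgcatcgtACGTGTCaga
OLEO1: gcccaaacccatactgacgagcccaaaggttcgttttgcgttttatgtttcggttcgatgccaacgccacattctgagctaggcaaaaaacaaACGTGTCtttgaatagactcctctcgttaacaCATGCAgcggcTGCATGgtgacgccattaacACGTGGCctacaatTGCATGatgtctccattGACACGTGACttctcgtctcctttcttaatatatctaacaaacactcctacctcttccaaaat
CRA1: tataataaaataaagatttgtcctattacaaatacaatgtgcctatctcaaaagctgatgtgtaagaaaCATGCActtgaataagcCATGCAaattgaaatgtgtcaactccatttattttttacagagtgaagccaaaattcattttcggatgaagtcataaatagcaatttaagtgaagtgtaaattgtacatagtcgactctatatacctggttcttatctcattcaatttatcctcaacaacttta
PSAH2: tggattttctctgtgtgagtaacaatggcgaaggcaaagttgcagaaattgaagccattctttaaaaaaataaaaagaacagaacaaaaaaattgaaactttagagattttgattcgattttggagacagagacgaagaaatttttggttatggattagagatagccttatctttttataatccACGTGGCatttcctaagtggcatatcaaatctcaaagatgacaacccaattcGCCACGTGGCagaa
LHCB2.1: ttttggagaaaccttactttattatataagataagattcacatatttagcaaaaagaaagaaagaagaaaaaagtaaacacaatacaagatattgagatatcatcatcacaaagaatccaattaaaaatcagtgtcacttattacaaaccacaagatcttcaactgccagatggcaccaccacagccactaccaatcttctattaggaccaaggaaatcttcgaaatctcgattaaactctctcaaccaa

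RAB18 holds 1 response element in this stretch, starting 111 bases before the gene start, and LTI65 holds 3, starting 63, 38 and 10 bases before it. In GEA6 the 2 matches lie on opposite strands of 1 site and overlap. OLEO1 holds 4 response elements, 2 of them overlapping, and 3 RY motifs, and the storage protein gene CRA1 holds 2 RY motifs and no response element. Of the lower genes, PSAH2, which encodes a photosystem I subunit, holds 3 response elements, 2 of them overlapping, and LHCB2.1, an antenna protein gene, holds neither motif. A match describes the letters only, and no match says nothing about any factor.

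Over all genes with a promoter window of 250 bases before to 50 after the start, 10.9% of 22091 promoters held the ABA response element. The share was 23.2% of 327 promoters of higher genes and 62 of 310 promoters of lower genes. It was larger for larger ratios on the higher side, from 17.2% of 267 promoters at 2-fold to 4-fold to 35.3% of 34 at 4-fold to 8-fold and 69.2% of 26 at 8-fold or more. On the lower side it was 17.7%, 24.6% and 37.5% of 237, 57 and 16 promoters. The RY motif was in 19.0% of the higher, 9.68% of the lower and 9.41% of all promoters, and in 46.2% of the 26 genes higher by 8-fold or more. The I-box GATAAG, known from light-regulated genes, was in 15.9%, 20.6% and 14.7%. In the 250 bases before the start alone its shares were 12.5%, 13.9% and 12.3%, so most of the gap lay after the start. From the start to 49 bases after it, the I-box began in 8.06% of lower and 2.58% of all promoters. The telo box AAACCCTA, frequent in ribosomal protein promoters, was in 5.81%, 1.61% and 6.19%. The G-box was in 17.7%, 12.9% and 8.18%, the drought element GCCGAC in 4.28%, 2.58% and 3.39%, and the W-box TTGACC in 11.3%, in 31 of 310 promoters and in 14.2%. The site II motif TGGGCC (18.0%, 16.1% and 16.8%) and the evening element AAAATATCT (5.2%, 2.26% and 2.87%) complete the motifs searched.

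**Figure D3:**
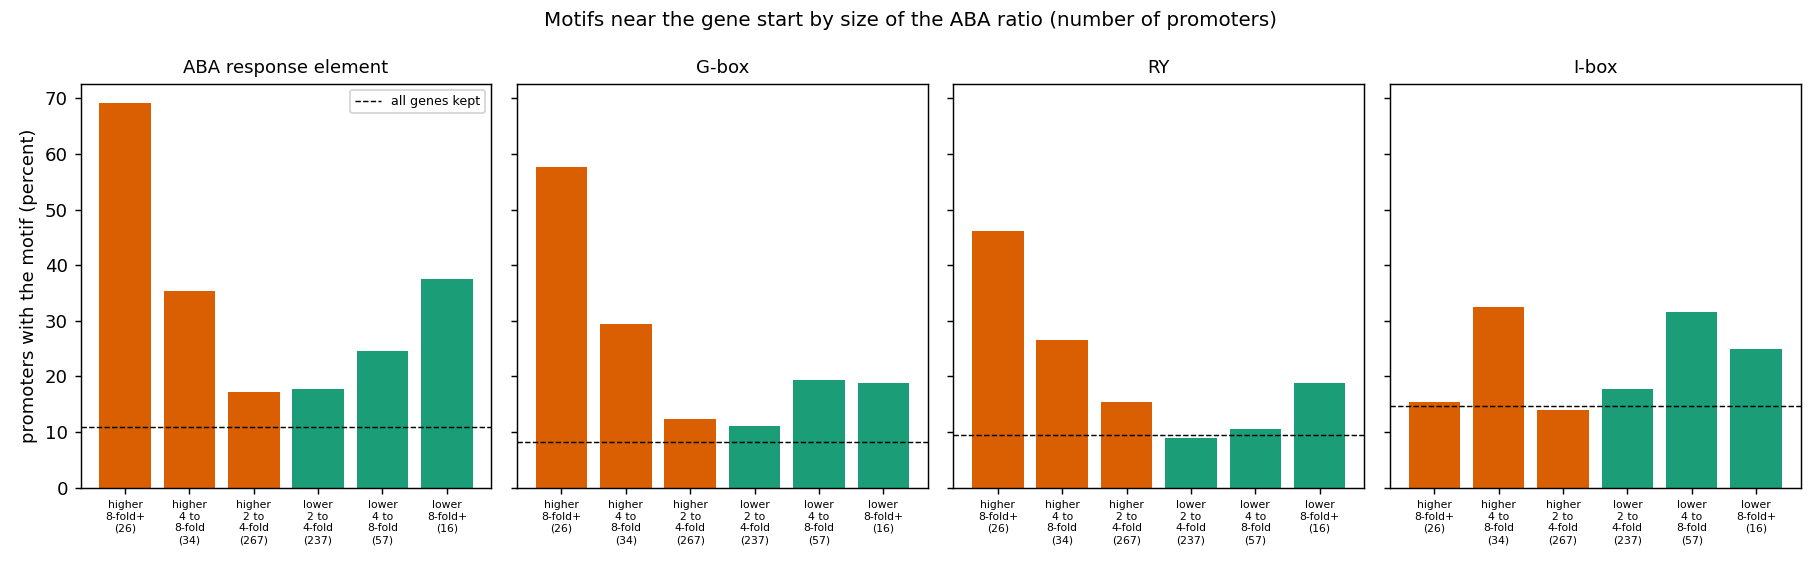
Percent of promoters (250 bases before to 50 after the gene start) that hold the ABA response element, the G-box, the RY motif or the I-box, by size of the smaller ABA ratio of both sets. Orange bars are higher genes, green bars lower genes, the number of promoters is in brackets and the dashed line is the share of all genes kept. The ABA response element stands in 69.2% of promoters in the strongest higher class against 10.9% of all.

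The lists differ in these motifs. Of 55 LEA promoters 47.3% held the ABA response element and 12.7% the RY motif. Of 7 storage protein promoters 14.3% held the response element and 85.7% the RY motif, and of 17 oil body promoters 47.1% and 76.5%. Among 49 photosystem promoters 34.7% held the response element and 44.9% the I-box. Among 318 ribosomal protein promoters 6.6% held the response element and 37.4% the telo box. In the higher genes the response element was most frequent between 100 and 51 bases before the start, in 36 of 327 promoters, against 6.77% of promoters of lower genes and 3.25% of all promoters in the same bin. That bin also held the highest share in the lower genes and in all genes.

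Lists of the ABA signal chain are given beside all genes kept, of which 1.49% were higher and 1.4% lower. These lists are short, so counts of 0 or 1 do not set them apart from all genes. Of 13 receptor genes kept, 0 were higher and 0 lower, with medians of -0.07 and -0.16. Of 8 clade A phosphatase genes, which hold the pathway off, 1 was higher: HAI3 had 5.51 RPKM in control and 34.3 with ABA in set 1, and 1.92 and 7.0 in set 2. Of 13 kinase and transcription factor genes 1 was higher, ABI4, an AP2-type factor of seed ABA response, with 4.7 and 16.2 RPKM in set 1, and 0.92 and 2.85 in set 2. Its ratio in set 2 was 1.0, at the threshold, and ABI5 had 2.75 and 0.76 and did not pass. The seed factors FUS3 (1.09 and -0.07), LEC1 (0.12 and -0.54) and LEC2 (0.12 and 0.56) did not pass either. Of the 15 genes this list named, ABI3 and ABF2 were not found among the matched features, so neither was read here. Of 13 ABA synthesis and breakdown genes 0 were higher and 0 lower, with medians of 0.68 and 0.03.

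Among 20 ABA-responsive genes outside the LEA family, 4 were higher and 1 lower, with medians of 0.66 and 0.26. KIN1 had 5.78 RPKM in control and 99.7 with ABA in set 1, and 1.35 and 4.97 in set 2. ADH1, alcohol dehydrogenase, had ratios of 1.81 and 1.52. RD22, which is induced by drought and ABA in older plants, was lower, with 70.5 and 31.7 RPKM in set 1, and 13.4 and 2.3 in set 2. COR15A (0.60 and -0.18), RD20 (-0.20 and 0.48) and P5CS1 (-0.15 and -0.04), known ABA-induced genes of leaves, did not pass.

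Of 22 genes that repress germination or act with gibberellin, the hormone opposing ABA, 3 were higher and 0 lower, with medians of 0.46 and 0.12. SOM (AT1G03790), a zinc finger protein that blocks germination in the dark, had 7.45 RPKM in control and 71.0 with ABA in set 1, and 2.63 and 25.4 in set 2. RGL2 (AT3G03450), the DELLA protein that restrains germination, had 13.7 and 86.3 RPKM in set 1, and 3.91 and 23.6 in set 2. The gibberellin receptor gene GID1A had ratios of 1.10 and 2.13, and after scaling it had 0.78 in set 1 and no longer passed. The other DELLA genes did not pass: RGL3 had 1.27 and 0.84, RGL1 0.07 and 0.15 and RGA1 0.12 and 0.04. The dormancy gene DOG1 had 8.04 and 22.1 RPKM in set 1 but 7.81 and 7.83 in set 2.

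Chlorophyll-binding antenna proteins included the 2 genes lowest by the smaller ratio of both sets, CAB1 and LHCB2.1. CAB1 (AT1G29930), an LHCB1 gene, had 1267 RPKM in control and 45.6 with ABA in set 1, and 495 and 13.5 in set 2. LHCB2.1 (AT2G05100) had 205 and 8.24 RPKM in set 1, and 237 and 3.04 in set 2. LHCB3 (AT5G54270) had 400 and 30.1 RPKM in set 1, and 270 and 4.51 in set 2. The control columns lay above the ABA columns by more than 8-fold in all of these. Of 25 light-harvesting genes kept, 16 were lower and 0 higher, with medians of -2.65 and -4.17. Their summed level went from 0.616% to 0.0775% of all RPKM in set 1 and from 1.42% to 0.0527% in set 2. CAB1 and CAB2, LHCB2.1 and LHCB2.2, and the small subunit genes of Rubisco are near copies. Because reads with several matching places stayed in the values, each copy alone is uncertain. The stress relatives ELIP1 (-1.01 and -0.45) and ELIP2 (-0.91 and -1.73), chosen after their values were seen, did not pass. Of 4 green tissue markers 3 were lower, CAB1, LHCB2.1 and LHCB3, and the remaining one, RBCS1A, had ratios of -0.81 and -1.68. Their sum went from 0.303% to 0.0264% of all RPKM in set 1 and from 0.523% to 0.0388% in set 2, and the part of a change in green tissue was not tested.

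Of 50 photosystem and electron transport genes kept, 23 were lower and 0 higher, with medians of -1.08 and -1.75. PSBO1 (AT5G66570), of the oxygen-evolving complex of photosystem II, had 262 RPKM in control and 18.1 with ABA in set 1, and 236 and 7.73 in set 2. PSAH2 (AT1G52230), a photosystem I subunit, had 192 and 12.3 RPKM in set 1, and 55.0 and 1.84 in set 2. PSAN had ratios of -3.11 and -3.96 and PSBQA -3.07 and -3.25. These genes are nuclear. The 11 organelle-encoded genes kept held 0 higher and 0 lower members, with medians of 0.74 and 0.00. With so few genes, 0 calls do not set that list apart from all genes kept (1.49% higher and 1.4% lower).

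Of 16 Calvin cycle genes kept, 11 were lower and 0 higher, and all 16 were below 0 in both sets, with medians of -1.42 and -2.59. RCA (AT2G39730), which keeps Rubisco active, had 246 RPKM in control and 30.9 with ABA in set 1, and 524 and 19.3 in set 2. RBCS3B, a Rubisco small subunit, had ratios of -2.93 and -5.21, FBA2, an aldolase, -1.97 and -2.79, and PRK, phosphoribulokinase, -2.17 and -2.32. Photorespiration, which recovers the carbon of the oxygenase reaction, had 6 lower and 0 higher members of 15, with medians of -0.74 and -1.97. That list was drawn up after the leading genes had been seen. The lower members included the glycolate oxidase gene GOX2 (-2.82 and -2.35) and SHM1, serine hydroxymethyltransferase (-1.65 and -2.09).

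Chlorophyll synthesis had 7 lower and 0 higher members of 19, with medians of -1.14 and -1.11. PORB (AT4G27440), the light-dependent reductase, had 847 RPKM in control and 42.1 with ABA in set 1, and 26.4 and 4.97 in set 2. GUN5 (AT5G13630), a magnesium chelatase subunit, had 152 and 13.8 RPKM in set 1, and 162 and 19.2 in set 2. HEMA1, which starts the pathway, had ratios of -2.55 and -2.35. The other lower members were HEME2 (-1.71 and -1.11), the chelatase subunit CHLI1 (-1.93 and -1.93), the chelatase cofactor GUN4 (-1.14 and -1.19) and the cyclase CRD1 (-2.16 and -2.95), while HEMA2 (0.22 and 0.75) was above 0 in both sets. HEME2, CHLI1, GUN4 and HEMA2 lie outside the naming rule and were chosen after their values were seen.

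**Figure D4:**
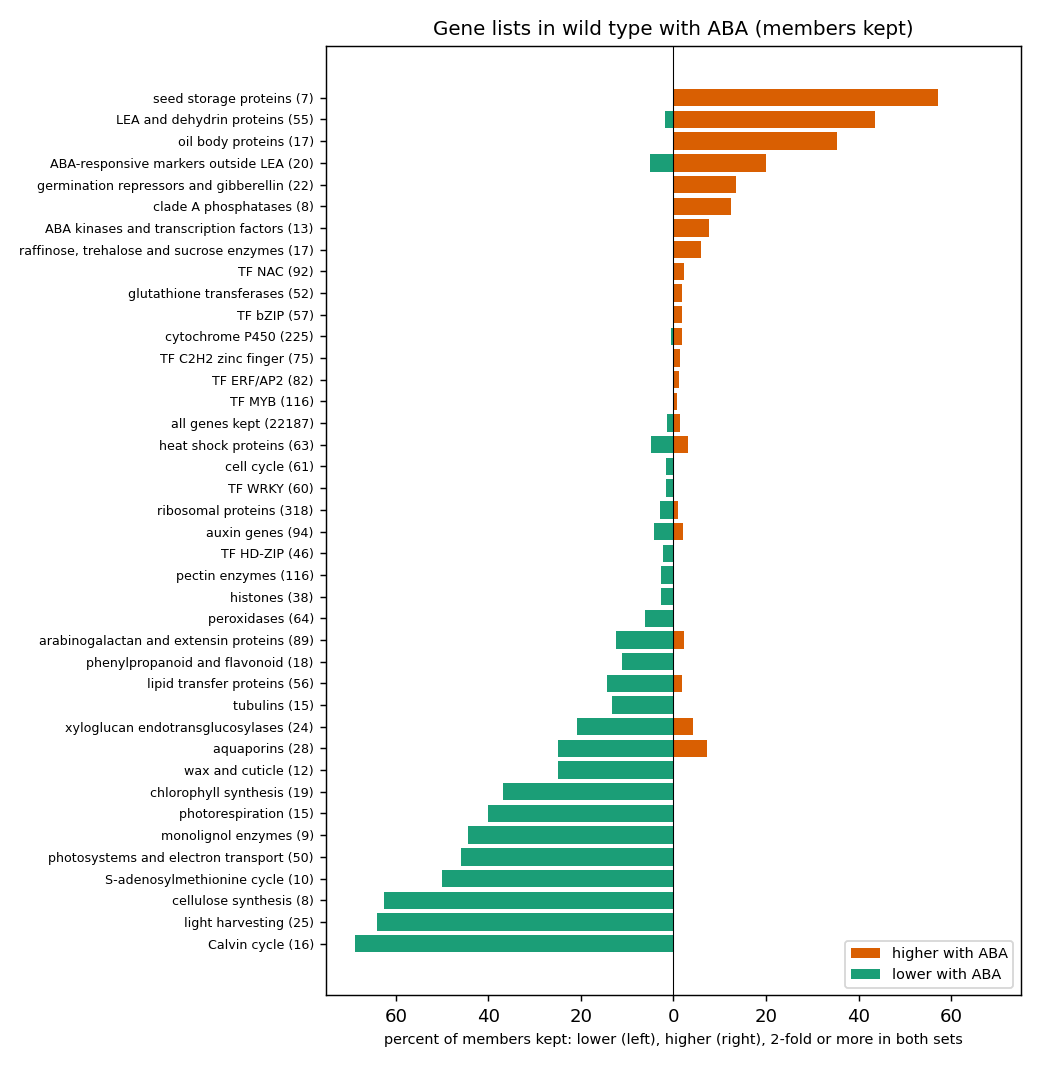
Percent of the members kept of each gene list that were at least 2-fold higher (right, orange) or lower (left, green) with ABA in both sets, with the number kept in brackets. Lists of 7 or more members with at least 1 call are shown, with all genes kept for comparison. Seed storage, LEA and oil body lists stand at the top, and Calvin cycle, light-harvesting and cellulose synthesis lists at the bottom. The cellulose synthesis, photorespiration, S-adenosylmethionine cycle, monolignol and wax lists were drawn up after the leading genes had been seen.

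Water channels divided by type. Of 28 aquaporin genes kept, 7 were lower and 2 higher, with medians of -0.52 and -0.57. GAMMA-TIP (AT2G36830), of the vacuole of growing cells, had 98.7 RPKM in control and 11.2 with ABA in set 1, and 73.2 and 1.29 in set 2. TIP2 had ratios of -3.01 and -4.60, and the plasma membrane channels PIP2A and PIP1A had -2.69 and -3.87, and -2.89 and -3.91. The 2 higher members are the seed channels TIP3;1 and BETA-TIP given above.

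The wall gene lists are given beside all genes kept, of which 1.4% were lower and 1.49% higher. The cellulose list was drawn up after the leading genes had been seen, so its count cannot be compared with those of the other wall lists. Of 8 genes of cellulose synthesis kept, 5 were lower and all 8 were below 0 in both sets, with medians of -1.37 and -1.14. POM1, a chitinase-like protein needed for cellulose, had 332 RPKM in control and 77.5 with ABA in set 1, and 40.7 and 9.21 in set 2. CESA1, a cellulose synthase subunit, had ratios of -1.47 and -1.23, and COB, which orients cellulose in expanding cells, -1.38 and -1.41. Xyloglucan endotransglucosylases, which cut and rejoin wall chains, had 5 lower and 1 higher members of 24, among them XTH4 (-2.20 and -2.56) and XTH5 (1.06 and 1.48). After scaling XTH5 had 0.72 in set 1 and no longer passed, and the list had 6 lower and 0 higher members. Arabinogalactan and extensin proteins had 11 lower and 2 higher members of 89. AGP21 had 78.4 and 9.52 RPKM in set 1, and 17.4 and 1.01 in set 2, and on the other side EXT10 had ratios of 1.54 and 1.30. Pectin enzymes had 3 lower and 0 higher members of 116, with medians of 0.36 and -0.26. Of 28 expansin genes 0 were higher and 0 lower, with medians of 0.04 and -0.14. Of 4 root hair markers 0 were called, and their sum went from 0.0146% to 0.0053% of all RPKM in set 1 and from 0.00709% to 0.00938% in set 2, so the sums differ in direction. In set 2 PRP3 went from 3.48 to 14.64 RPKM, while EXPA18 went from 7.24 to 5.43 and EXPA7 from 2.56 to 1.93. These markers were singled out after their values were seen.

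Lignin precursor synthesis and the methyl donor cycle it draws on also had lower members. The lists of methyl cycle, monolignol, cellulose, photorespiration, wax and vacuolar enzyme genes were drawn up after the leading genes had been seen, and their counts are a description only. Of 9 monolignol enzyme genes 4 were lower and 0 higher, with medians of -0.88 and -1.34. CCoAOMT1, a methyltransferase of the pathway, had 250 RPKM in control and 15.5 with ABA in set 1, and 21.1 and 3.13 in set 2. CAD9 had ratios of -3.81 and -2.35, OMT1 -2.51 and -2.71 and HCT -1.78 and -1.33. In the entry steps shared with flavonoids, PAL1 had -2.45 and -1.82 and 4CL1 -1.62 and -1.49, 2 lower of 18. Of 10 genes of the S-adenosylmethionine cycle 5 were lower and 0 higher, with medians of -1.18 and -0.84. SAHH2, which removes the spent methyl donor, had 337 and 76.3 RPKM in set 1, and 37.1 and 8.01 in set 2. MAT3 (-2.09 and -1.93), MTO3 (-1.79 and -1.38) and SAM1 (-1.19 and -1.09) make the donor itself. Surface wax and cuticle genes had 3 lower of 12, KCS10 (-2.08 and -1.87), CER2 (-1.26 and -1.88) and CER3 (-1.28 and -1.43). Peroxidases had 4 lower of 64 (6.25%) and lipid transfer proteins 8 lower (14.3%) and 1 higher (1.79%) of 56. The counts of this paragraph stand beside 1.4% lower and 1.49% higher over all genes kept.

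Among the other leading lower genes, AT1G09310, a protein of unknown function, had 915 and 71.2 RPKM in set 1, and 40.6 and 1.38 in set 2. The glycine-rich protein gene GRP23 had ratios of -3.21 and -3.13. Auxin genes had 4 lower and 2 higher of 94, 4.26% and 2.13%, against 1.4% and 1.49% of all genes kept. Among them GH3.3 had -2.25 and -1.22 and the auxin exporter PIN3 -1.32 and -1.22. Of 15 tubulin genes 2 were lower, TUB7 (-1.78 and -1.22) and TUA3 (-1.29 and -1.17).

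Of all genes kept 1.49% were higher and 1.4% lower. The lists of this paragraph lay near these shares, with at most 2.83% of a list called on either side. Among regulator families calls were 1 of 116 MYB genes, MYB23 (1.49 and 1.29), and 1 of 60 WRKY genes, WRKY31 (-2.68 and -1.93). Of 92 NAC genes 2 were called, ATAF1 (1.03 and 1.41) and AT3G12910 (1.10 and 1.03). Of 124 bHLH genes 0 were called. Ribosomal proteins of all compartments had 9 lower and 3 higher of 318, and their medians had opposite signs, -0.57 and 0.41. The cell cycle list had 1 lower of 61 and the histone list 1 of 38, with histone medians of -0.95 and -0.04. Cytochrome P450 genes had 4 higher and 1 lower of 225. After scaling these were 1 and 2, and the NAC count was 0. The median of 8 common reference genes was -0.62 and -0.52, with 0 past the rule, and GAPC1 (-1.64 and -0.67) and ACT2 (-1.13 and -0.87) were below 0 in both sets.

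The same genes were then read in ZFP3ox, whose 2 samples are separate from the wild-type ones. Of the 331 genes higher in wild type, 52 were also higher in ZFP3ox with ABA, which is 15.7% of the wild-type list and 23.3% of the 223 genes higher in ZFP3ox (1.01% of all genes kept). Of the 311 lower genes, 86 were also lower, 27.7% of the wild-type list and 52.4% of the 164 lower in ZFP3ox (0.739% of all genes kept). No gene was called on opposite sides. Above 0 in both ZFP3ox sets were 245 of the higher genes, 74.0% against 45.1% of all genes kept, and below 0 were 247 of the lower genes, 79.4% against 17.2%. The median ratios in ZFP3ox were 0.67 and 0.51 for the higher genes and -0.97 and -0.90 for the lower genes. The members were chosen for large ratios in wild type, which by itself favours smaller values elsewhere, and the difference between the genotypes was not tested.

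**Figure D5:**
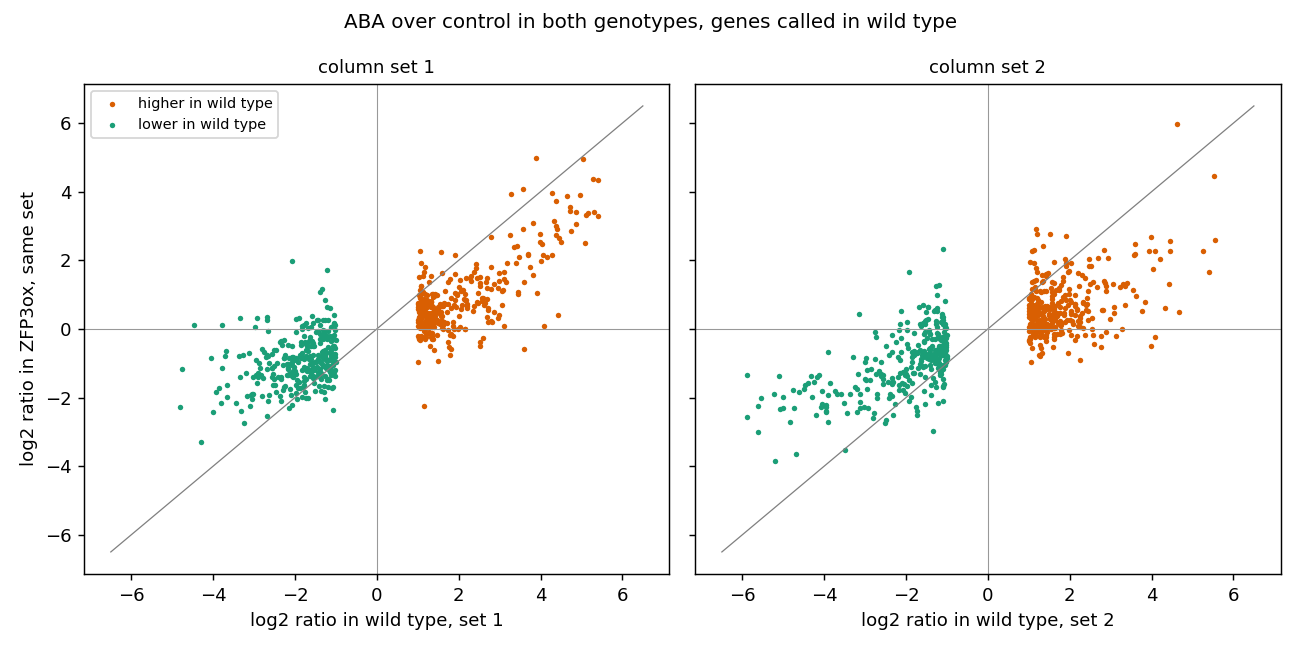
Log2 ratio of ABA over control in wild type (x axis) and ZFP3ox (y axis) for the 331 higher and 311 lower genes, column set 1 on the left and column set 2 on the right. The diagonal marks equal ratios, and most points lie on the same side of 0 in both genotypes and nearer to 0 in ZFP3ox.

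Among the leading genes AT3G02480 had 4.96 and 4.47 in ZFP3ox, close to its 5.04 and 5.51 in wild type, and KIN1 had 4.98 and 2.42 against 3.89 and 1.35. RAB18 had 4.34 and 2.27. At the other end of the scale LHCB2.1 had 0.13 and -2.57 in ZFP3ox against -4.48 and -5.88, and PAP85 had 1.99 and -0.50 against 4.01 and 4.0. Chosen after their values were seen, AT1G73350 had 13.3 RPKM in control and 99.2 with ABA in wild type in set 1, and 3.76 and 79.2 in set 2. In ZFP3ox its columns were 12.5 and 14.6 RPKM, and 3.48 and 2.82. AT5G51370 had 4.17 and 34.7 RPKM in wild type in set 1, 1.92 and 57.3 in set 2, and ratios of 0.24 and 0.61 in ZFP3ox.

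The authors' deposited tables of ABA-responsive genes were made from the same expression columns and are no independent evidence. Their table of higher genes lists 803 genes and holds 329 of the 331, which is 99.4% of these and 41.0% of the table. Their table of lower genes lists 543 genes and holds all 311, which is 57.3% of the table. In the authors' deposited table the signed fold of AT3G02480 in wild type was 44.32 and that of CAB1 was -31.61.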

How the data were processed

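Total RNA of seedlings was depleted of ribosomal RNA and sequenced as 50-base SOLiD reads, per the labels' protocols. The authors deposited RPKM values per gene in 2 columns for each of 4 samples. Per the authors' deposited settings, reads matching up to 10 places were used. Aligner and genome build: not given in the sources used here. The authors also deposited a signed fold, a score, per listed gene. Of 23932 features 23438 matched RefSeq TAIR10.1 through a locus code, 196 through a symbol and 254 through a symbol with its position, and 44 had no match. Read counts were not used here. In set 1, RPKM times exon length fell within 0.1 of a whole multiple of 1 step for 68.6% and 74.5% of low values (20% with no steps), which gives about 4090000 reads in control and 3190000 with ABA. In set 2 the shares were 21.1% and 21.0%, so its depth is unknown. Both columns of a sample count as 1 replicate, and nothing says what separates them. A pseudocount of 1, a minimum of 1 RPKM in both columns and 2-fold in both sets made the calls, in Python 3.11.15 with pandas 2.3.3. The ratio and call rule, the scaling and the motif search were tested on simulated data. The step search behind the read numbers was not. Genes named are the markers, the 20 highest and 20 lowest by the smaller ratio, up to 4 leading members of each list, and regulators by role; others are said to be chosen after their values were seen. Of the 20 lowest, 1 is not reported here. Members and lists were chosen with earlier results of these data known.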

Additional observations from a re-analysis of the deposited data

Results flagged for a closer look

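Among the named genes that were called higher or lower in wild type, 2 lay on opposite sides of 0 in the genotypes in both sets, and the difference was not tested. In wild type AT2G21580, a ribosomal protein S25 gene, had log2 ratios of 1.01 (set 1) and 2.37 (set 2), whereas ZFP3ox had -0.98 and -0.16. After scaling its set 1 ratio in wild type was 0.67, and AT2G21580 was no longer called. For WRKY31, a WRKY transcription factor gene, wild type had -2.68 and -1.93 but ZFP3ox 0.34 and 1.65. Its wild-type level was 52.8 RPKM in control and 7.39 with ABA in set 1, and 50.6 and 12.5 in set 2.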

How the results depend on the processing

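No paired analysis was possible because each group has 1 sample. The main counts were 331 higher and 311 lower. With pseudocounts of 0 and 0.1 the higher count was 570 and 542, and with 5 the counts were 116 and 160. Set 1 alone gave 2668 and 1088, set 2 alone 1492 and 1331, and the mean of both sets 1039 and 645. At 4-fold the counts were 60 and 73, and at 1.5-fold 1242 and 839. The other alternatives stayed within 1.5 times. Among them, dropping the minimum of 1 RPKM could not change the counts. A 2-fold call in both sets with an added 1 already needs 1 RPKM or more in both columns of a sample. Median-of-ratios scaling gave 222 and 414, sharing 215 of the higher and 306 of the lower genes, with or without organelle-encoded genes. A pseudocount acts most on genes of low level, and a fold limit changes how many genes pass by construction; for the other settings the cause was not tested. Over the alternatives, 159 ratios of named genes moved by more than the gap between the sets and 1121 did not. For list medians 19 moved and 241 did not. Each set alone was among these alternatives and lies within the gap by construction, and a wider gap is harder to exceed. The counts that did not move therefore overstate stability. With the 250 bases before the start alone, 10 of the motif shares left their 95% interval and 17 did not. That window lies inside the main one, so a share could only fall. Shares over all genes kept rest on 22091 promoters and have narrow intervals, so they leave them easily. Among lower genes the I-box share went from 20.6% to 13.9%. A called gene cannot change sign with another pseudocount or in either set alone, so only scaling could have done so. Under scaling 0 of the named genes that were called changed sign. With about 3190000 to 4090000 reads in set 1 and unknown depth in set 2, ratios of scarce genes are the least certain.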
